A study of Mus musculus with 6 samples.

Results

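The 3 genes described here connect the bone-forming osteoblast to the bone-resorbing osteoclast: Tnfrsf11b, which encodes osteoprotegerin (OPG), Tnfsf11, which encodes RANKL, and Ctsk, which encodes cathepsin K. They were chosen by gene symbol, and each was represented by 1 probe among the 13183 named probes that passed the detection filter, of 45281 probes on the array. The cells were MC3T3-E1, a mouse osteoblastic line, used as clone 14, and flow was made by orbital shaking of culture wells. They received no flow (NF), 1 h of continuous flow (CF), or 1 h of rest-inserted flow (RF) made of 4 bouts of 5 min of flow and 10 min of rest. RNA was taken at the end of that hour (0 h) or 1 h later (1 h), which gave the 6 arrays NF0, RF0, CF0, NF1, RF1 and CF1. Each was hybridized with RNA pooled from 3 experiments, so no condition had a replicate array.

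Osteoclasts form from blood-derived precursors when RANKL, presented or shed by osteoblasts, osteocytes and lymphocytes, binds the receptor RANK on the precursor. OPG is a secreted decoy receptor that captures RANKL before it reaches RANK, so the balance of the 2 proteins sets how many osteoclasts form. Cathepsin K is the collagen-cutting cysteine protease that osteoclasts release onto bone, and lower levels of its transcript are found in other mesenchymal cells. In bulk RNA from a culture, fewer cells of a type and less RNA per cell cannot be told apart.

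The study also measured OPG and RANKL by real-time RT-PCR, whose values are not analysed here. The designed primer pairs are printed because they define, apart from the array probe, which transcripts the names OPG and RANKL stand for. All are written 5′ to 3′, with the 5 bases at the 3′ end, where extension starts, in capitals. The gene table of RefSeq places Tnfrsf11b on mouse chromosome 15 and Tnfsf11 on chromosome 14.
OPG forward: ctgcctgggaagaagATCAG
OPG reverse: ttgtgaagctgtgcaGGAAC
RANKL forward: ccaagatctctaacaTGACG
RANKL reverse: caccatcagctgaagATAGT
Each primer was 20 bases long. The OPG primers had a GC content of 55% and 50%, and both RANKL primers had 45%. The RT-PCR reference genes Actb (beta-actin) and Ppia (cyclophilin) were steady on the arrays, with an SD over the 6 arrays of 0.047 log2 units each.

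Across the arrays, 13472 to 14426 of the 45281 probes were detected, where detection means a signal above the negative controls at a p-value under 0.01. Values are given as quantile-normalized signal, in intensity units, or as its log2 after signals under 10 were set to 10. Of 12 osteoblast markers, 6 were measured and 5 of them were detected on all arrays, namely the collagen genes Col1a1 and Col1a2, the matrix gene Sparc, the transcription factor Sp7 and the sialoprotein gene Ibsp. Of 18 macrophage and osteoclast markers, 4 were measured (Cd14, Csf1r, Lyz2 and Mmp9), and 2 of them were detected on all arrays. The defining osteoclast genes on that list, among them Acp5, Calcr, Oscar, Dcstamp and Ocstamp, had no probe among those that passed the filter. Of 8 lymphocyte markers 1 was measured, of 7 chondrocyte markers 2, and of 6 adipocyte markers 0.

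Tnfrsf11b, the RANKL decoy, was detected on all 6 arrays. Its normalized signal was 200.4 in NF0, 225.3 in RF0 and 256.5 in CF0, and 308.9 in NF1, 319.7 in RF1 and 335.7 in CF1. The 3 arrays of 1 h all lay above the 3 arrays of 0 h, and at both time points the order was NF, RF, CF. A full separation with 1 h above 0 h was seen for 9.03% of the 13183 probes, and the order NF, RF, CF at both times for 3.20%. The highest array was 1.68-fold above the lowest. The SD over the 6 arrays was 0.30 log2 units, where the median among the 1318 probes of like intensity (10 classes of equal size by mean signal) was 0.087, and 99.2% of those probes had a lower SD.

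**Figure D1:**
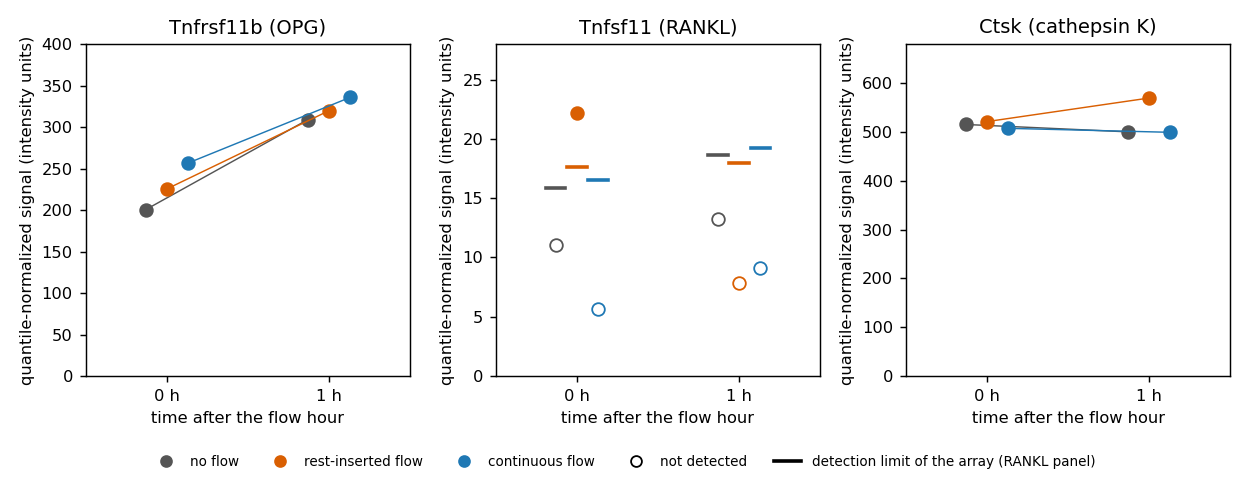
Quantile-normalized signal (intensity units, axis from 0) of Tnfrsf11b, Tnfsf11 and Ctsk on each of the 6 arrays at 0 h and 1 h, coloured by flow condition; each point is 1 array of pooled RNA, open points were not detected, and short bars in the RANKL panel mark the detection limit of each array. OPG lay at 200.4 to 256.5 at 0 h and at 308.9 to 335.7 at 1 h, RANKL passed its limit on RF0 alone, and cathepsin K stayed between 499.2 and 569.4.

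The largest difference in OPG transcript was between time points. Averaged over the flow conditions, the 1 h arrays were higher than the 0 h arrays by 0.51 log2 units (SE 0.079, 95% interval 0.29 to 0.72), a 1.42-fold difference. The step was 0.62 without flow, 0.50 with rest-inserted flow and 0.39 with continuous flow. All 3 steps had the same sign, and it was present in the cells that received no flow. Steps of at least 0.5 in either direction were found for 9.57% of probes without flow, 9.22% with rest-inserted flow and 10.4% with continuous flow. In the dimmest class of probes these shares were 39.4%, 37.7% and 40.1%, and in the intensity class of Tnfrsf11b they were 0.607%, 0.986% and 1.29%.

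Whether this time difference was called depended on the variance prior that limma used. With the constant variance prior the Benjamini-Hochberg adjusted p of Tnfrsf11b was 0.337, and 0% of the 13183 probes were called between the time points, with 1352 at an unadjusted p under 0.05. A prior that follows intensity was an alternative listed for every test. It changed the SE of Tnfrsf11b from 0.079 to 0.070 and the prior degrees of freedom from 2.1 to 23.2. With it limma gave Tnfrsf11b an adjusted p of 6.3e-05. That fit called 94 probes as higher at 1 h (0.713%) and 228 as lower (1.73%). Without RF0 or without RF1 its adjusted p for Tnfrsf11b was 0.148 and 0.146, with a log2 difference of 0.51 in both, and without any of the other 4 arrays it was 0.024 to 0.037. An exact two-sided permutation test of 3 arrays against 3, which ignores the flow conditions, cannot give a p below 0.10. Permuting time within flow conditions allows fewer arrangements, so the bound would be higher still. The time points also differ in anything that separated the RNA collections or array runs, and these cannot be told apart.

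Flow differences in Tnfrsf11b were smaller and were not called. At 0 h, CF0 was 0.36 log2 units (1.28-fold) above NF0, RF0 was 0.17 above NF0, and RF0 was 0.19 below CF0. At 1 h the same differences were 0.12, 0.049 and -0.070. None of the 6 reached 0.5, a size that 8.90% of probes reached for CF0 against NF0, 8.92% for RF0 against NF0, 7.43% for RF0 against CF0, 9.11% for CF1 against NF1, 8.44% for RF1 against NF1 and 7.98% for RF1 against CF1. In the intensity class of Tnfrsf11b these shares were lower, from 0.076% to 0.76%. The difference of CF0 from NF0 lay outside the range from the 5th to the 95th percentile of probes of like intensity, -0.22 to 0.22. The other 5 differences lay inside their ranges. These are differences between single arrays and carry no test.

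Averaged over both times, OPG was higher with continuous flow than without by 0.24 log2 units (SE 0.096, 95% interval -0.03 to 0.50; limma adjusted p = 0.827). Rest-inserted flow differed from no flow by 0.11 (interval -0.16 to 0.37; limma adjusted p = 0.959) and from continuous flow by -0.13 (interval -0.39 to 0.14; limma adjusted p = 0.999). Without single arrays these 3 differences ranged from 0.15 to 0.33, from 0.020 to 0.20 and from -0.22 to -0.040. The lowest value of the first 2 came without NF0 and the highest without NF1, and the third was nearest to 0 without CF0 and farthest from it without CF1. With the constant prior limma called 0% of probes in each of these 3 contrasts, with 804, 711 and 625 probes at an unadjusted p under 0.05. With the intensity trend it called 6 probes for continuous flow against no flow and 0 in the other contrasts, and Tnfrsf11b had adjusted p-values of 0.588, 0.939 and 1. In the order of its 6 levels, the 3 gaps from NF0 through RF0 and CF0 to NF1 were 0.17, 0.19 and 0.27. Each was above 0.12, the SD of a difference between 2 arrays by the residual SD, which rests on 2 degrees of freedom. The gaps of 0.049 and 0.070 among NF1, RF1 and CF1 were below it. A gap past 1 SD is no test, so no difference between levels is read from these gaps.

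**Figure D2:**
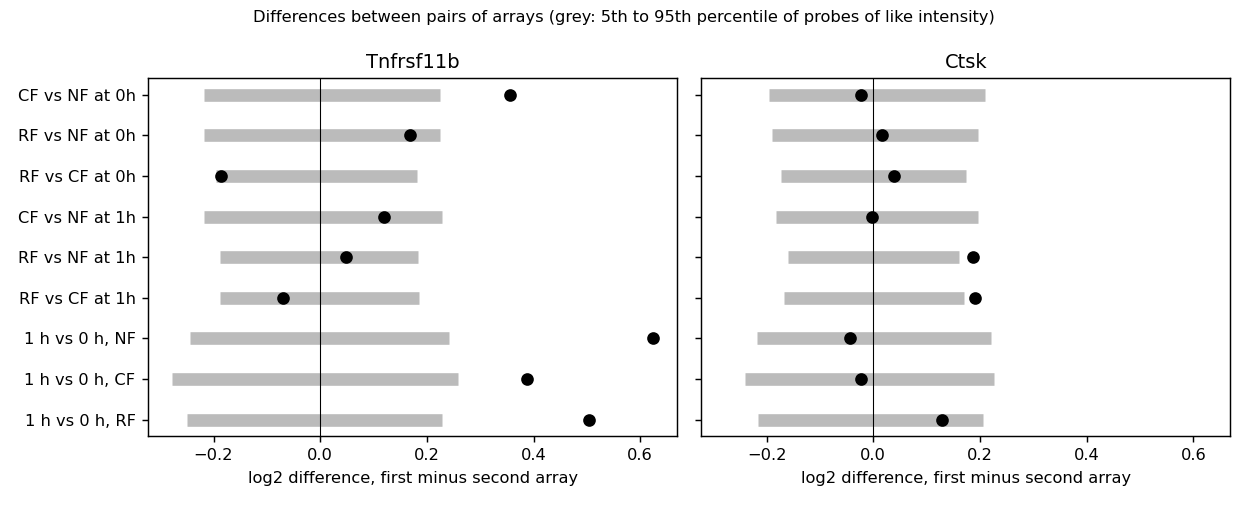
Log2 difference (first minus second array) of Tnfrsf11b and Ctsk in the 6 flow comparisons and the 3 time comparisons; points are single differences between 2 arrays, and grey bars span the 5th to the 95th percentile of the 1318 named probes in the same class of mean intensity. Tnfrsf11b lay beyond the bar for CF0 against NF0 and for all 3 time steps, and Ctsk slightly beyond it for RF1 against NF1 and RF1 against CF1.

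Tnfsf11, the ligand RANKL, was at the edge of detection. It passed on RF0 alone, with a signal of 22.8 before normalization, a detection p of 0.0021 and a normalized signal of 22.2. The normalized signals on the other arrays were 11.1 in NF0, 5.63 in CF0, 13.3 in NF1, 7.84 in RF1 and 9.12 in CF1, all below the detection limits of 15.8 to 19.3. The call on RF1 was made from the signal, since the deposited column holds no detection p for this probe there.

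Tnfsf11 entered the table through RF0 alone, so that RF0 is its highest array was fixed by the detection filter and is no result. With the RF0 signal taken as exact, it was at least 1.15-fold (CF1) to at least 1.40-fold (NF0) above the limits of the other arrays, a description with no test. Detection on a single array was common: 813 of the 13183 named probes (6.17%) were detected on 1 array only, 113 of them on RF0, and a p under 0.01 alone would pass 453 of 45281 probes per array. Its signals on CF0, RF1 and CF1 were under 10 and were set to that floor, so RF1 and CF1 have the same value. The limma adjusted p-values for Tnfsf11 were 0.76 to 0.999 over the 4 contrasts. The 95% intervals were as wide as -0.46 to 1.61 for rest-inserted against continuous flow. Both rest on floored values of a probe that the filter kept for RF0, so they test no flow or time effect. The other 5 arrays gave only a bound, so no ratio of RANKL to OPG is given, and a difference between flow conditions was not detectable at this signal.

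Ctsk, the resorptive protease, was detected on all 6 arrays although the other defining osteoclast genes named above were not among the measured genes. Its normalized signal was 515.2 in NF0, 521.1 in RF0 and 507.3 in CF0, and 500.1 in NF1, 569.4 in RF1 and 499.2 in CF1. RF1 stood highest, and the other 5 arrays lay between 499.2 and 521.1. The SD over the arrays was 0.071 log2 units, near the median of 0.076 for probes of like intensity, and 42.8% of those probes had a lower SD.

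The order CF, NF, RF held at both time points for Ctsk, as it did for 2.58% of probes. At 0 h the differences were within 0.04 log2 units (RF0 over NF0 by 0.016, CF0 under NF0 by 0.022, RF0 over CF0 by 0.039). At 1 h, RF1 was above NF1 by 0.19 (1.14-fold) and above CF1 by 0.19, while CF1 differed from NF1 by -0.0027. Over both times rest-inserted flow differed from no flow by 0.10 (SE 0.090, interval -0.14 to 0.35; limma adjusted p = 0.959) and from continuous flow by 0.11 (interval -0.13 to 0.36; limma adjusted p = 0.999). Continuous flow differed from no flow by -0.012 (limma adjusted p = 0.998), and 1 h from 0 h by 0.021 (interval -0.18 to 0.22; limma adjusted p = 0.945). In the order of levels, only the step of 0.13 from RF0 to RF1 was above 0.094, the SD of a difference between 2 arrays. All other gaps between neighbours were under it, a description with no test.

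The transcripts whose pattern over the 6 arrays was most like that of Tnfrsf11b, among 6202 probes detected on every array with an SD of at least 0.1, were Slc19a2 (r = 0.997), Tamm41 (r = 0.993), Cstf2 (r = 0.992), Lox (r = 0.987) and Phldb1 (r = 0.986). Slc19a2 encodes a thiamine transporter, Tamm41 a mitochondrial enzyme of cardiolipin synthesis, Cstf2 a subunit of the cleavage stimulation factor of mRNA 3′ ends, and Lox the lysyl oxidase that cross-links collagen. Their time differences were smaller than that of Tnfrsf11b, from 0.17 for Tamm41 to 0.29 for Phldb1. Lox, for instance, had log2 signals of 10.48, 10.56 and 10.66 at 0 h in NF, RF and CF, and 10.75, 10.74 and 10.77 at 1 h. For Ctsk the 5 most alike were Me2 (r = 0.994), Kif18a (r = 0.976), Rarg (r = 0.970), Man1c1 (r = 0.965) and Nhlrc2 (r = 0.965). In each of them RF1 was the highest array, as in Ctsk. These are descriptions over 6 arrays, each of 1 RNA pool, chosen as the highest of many.

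**Figure D3:**
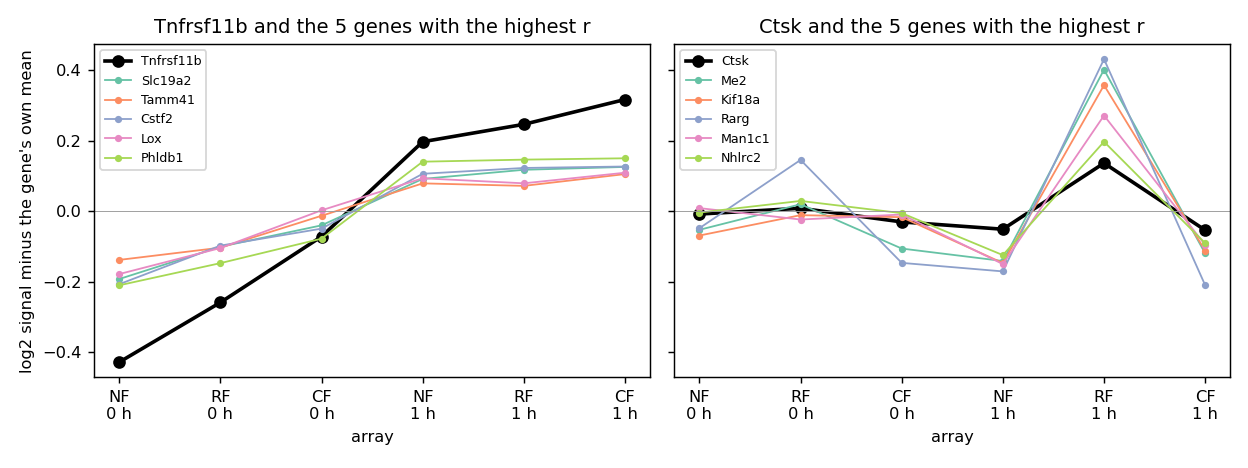
Log2 signal minus each gene's own mean over the 6 arrays for Tnfrsf11b (left) and Ctsk (right), in black, with the 5 genes whose pattern had the highest Pearson r, in colour; each point is 1 array. The genes beside Tnfrsf11b were all lower at 0 h than at 1 h and lowest in NF0, with smaller steps than Tnfrsf11b, and those beside Ctsk all peaked in RF1.

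Other factors of the same biology were read with 1 probe, the brightest, for each gene. None of their genes was called by limma with the constant prior in any of the 4 contrasts, nor with the intensity trend in any flow contrast, so the calls below are those of the intensity trend between time points. Over all 8566 genes that fit called 66 as higher at 1 h and 180 as lower, with a median difference of 0.0022 log2 units. Of 22 genes for the receptors of RANKL and the signalling below them, 15 were measured, 0 were called higher and 1 lower, with a median of -0.053. The receptor genes Tnfrsf11a (RANK) and Lgr4 were not among the 15. Tab2, which links TRAF6 to the kinase TAK1, was the one called (-0.21, SE 0.050, limma adjusted p = 0.020). Traf6 itself, the adaptor of RANK, differed by -0.14 and was not called.

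Of 19 osteoclast-promoting factors that osteoblasts make, 10 were measured, 0 were called higher and 3 lower at 1 h, with a median of -0.11. Csf1, the growth factor for osteoclast precursors, had log2 signals of 9.78, 9.83 and 9.90 at 0 h in NF, RF and CF, and 9.65, 9.63 and 9.56 at 1 h (difference -0.23, SE 0.055, limma adjusted p = 0.023). Every 1 h array of Csf1 lay below every 0 h array, as for 843 of all 8566 genes. Ccl7, a chemokine for monocytes, differed by -0.51 (SE 0.081, limma adjusted p = 0.00034), and Ccl2, the related monocyte chemokine, by -0.73 (SE 0.18, limma adjusted p = 0.024). Cxcl12, Ptges, Wnt5a, Vegfa and Mmp14 differed by 0.014 to 0.16 and were not called, although a dimmer probe of Cxcl12 gave -0.25 and one of Wnt5a 0.34.

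Of 12 restraining factors other than OPG, 6 were measured and 0 were called in either direction, with a median of 0.022. Sema3a, a semaphorin that inhibits osteoclast formation, differed by 0.061, Tgfb1 by 0.12, Ephb4 by -0.16 and Il18 by -0.27. A dimmer probe of Ephb4 gave the opposite sign, 0.12. Of 23 upstream regulators of Tnfsf11 and Tnfrsf11b, 14 were measured, 0 were called higher and 1 lower, with a median of 0.019. Jun, a subunit of AP-1, had log2 signals of 6.72, 7.37 and 7.89 at 0 h in NF, RF and CF, and 6.47, 6.41 and 6.60 at 1 h (difference -0.83, SE 0.12, limma adjusted p = 0.00015). For Jun the 3 arrays of 1 h were all below those of 0 h, as for 843 of all 8566 genes. Its partner Fos differed by -0.52 and was not called (limma adjusted p = 0.107). Vdr, the vitamin D receptor, differed by 0.022, and its other probes gave -0.11 and 0.11. Ctnnb1, the transcriptional arm of canonical Wnt signalling, differed by 0.097, while its other probes reached -0.25.

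Of 15 other cathepsins and cystatins, 9 were measured and 0 were called, with a median of -0.079. Ctsb differed by -0.14, Ctsh by -0.24 and the inhibitor Cst3 by -0.048, beside 0.021 for Ctsk. Of 14 bone resorption effectors, 10 were measured, 0 were called higher and 1 lower, with a median of -0.016. Mmp13, the collagenase that osteoblasts make, had log2 signals of 7.88, 7.65 and 7.60 at 0 h in NF, RF and CF and 6.93, 7.22 and 6.83 at 1 h (difference -0.72, SE 0.090, limma adjusted p = 1.7e-05), and its other probe gave -0.37. Mmp9, Mmp2 and the chloride channel gene Clcn7 differed by -0.25, -0.13 and 0.082 and were not called.

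These calls differed in how they held in fits without single arrays. Leaving out either array of a flow condition gave the same time difference, because the remaining array of that condition is then fitted exactly. For Tnfrsf11b it was 0.45 without NF0 or NF1, 0.51 without RF0 or RF1, and 0.56 without CF0 or CF1. The fits therefore come in pairs with the same estimate and are not independent. Out of 6 such fits, each without 1 array, Tnfrsf11b and Mmp13 were called in 4, Jun and Ccl7 in 2, and Tab2, Csf1 and Ccl2 in 0. In those fits the highest adjusted p was 0.094 for Mmp13, 0.39 for Jun and 0.32 for Ccl7, and the lowest was 0.16 for Tab2, 0.084 for Csf1 and 0.22 for Ccl2.

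Markers of osteoblasts and of other cell types were read in the same way. Of the 6 measured osteoblast markers, Col1a1 was called as lower at 1 h with the intensity trend (-0.23, limma adjusted p = 0.0097), in 2 of the 6 fits without 1 array and with adjusted p-values of up to 0.48 in the others. Sp7 differed by 0.18, Col1a2 by -0.021, Sparc by -0.11 and Ibsp by -0.31, and none of these was called. A dimmer probe of Ibsp gave -0.75. Col2a1, on the chondrocyte list, was called as higher by 0.56 (limma adjusted p = 3.5e-07, same fit) and in all 6 fits without 1 array, and Sox9, the other measured gene of that list, differed by -0.017. Of the 4 macrophage and osteoclast markers, Cd14 differed by 0.19 and Mmp9 by -0.25, and neither was called. Csf1r differed by 0.16 and was not called either, but it was detected on 1 array only. Its values on the other arrays lay below detection, with RF0 and CF0 at or near the floor, so no time difference is read from it. Lyz2, named here after its values were seen, was detected on the 3 arrays of 0 h and on 0 of 1 h. It passed the filter through the 0 h arrays alone, so its higher level at 0 h was fixed by the filter and is no result. Against the detection limits it was at least 1.30-fold higher at 0 h, a description with no test. Its call (limma adjusted p = 0.011, same fit) rests on 1 h values at or near the floor and did not hold without single arrays. The summed signal of the chondrocyte markers was 4108 to 4303 at 0 h and 4335 to 4743 at 1 h. That of the macrophage and osteoclast markers was 176.0 to 207.7 and 150.8 to 185.7. That of the osteoblast markers was 15764 to 17710 and 15236 to 15702. The brightest gene of each list (Sox9, Mmp9 and Sparc) weighs most in these sums, and genes within each list differed in direction. Of the 2 genes in the chondrocyte sum, Col2a1 was higher at 1 h by 0.56, while Sox9 differed by -0.017. A dimmer probe of Sox9, not in the sum, gave 0.076. The 1 measured lymphocyte gene, Ms4a1, was detected on CF1 alone, at 25.4, and its signals of 14.1 in NF1 and 16.7 in RF1 lay below the detection limits of those arrays. Their part in the time difference of Tnfrsf11b was not tested.

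**Figure D4:**
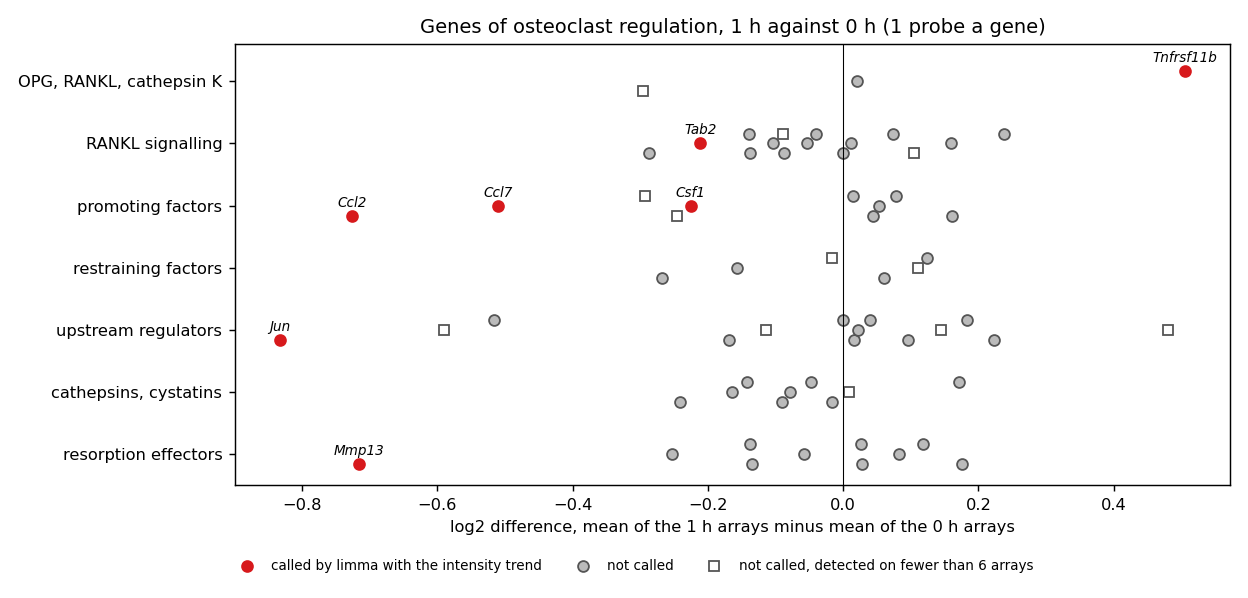
Log2 difference between the mean of the 3 arrays of 1 h and the mean of the 3 arrays of 0 h for each measured gene of the 3 genes and 6 related lists; red points were called by limma with the intensity trend (adjusted p under 0.05), grey points were not, and open squares were detected on fewer than 6 arrays. Tnfrsf11b, at 0.51, was the 1 gene called as higher at 1 h, and the 6 called as lower lay between -0.83 for Jun and -0.21 for Tab2.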

How the data were processed

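Total RNA of 6 conditions, each pooled from 3 experiments, was hybridized to MouseWG-6 v2.0 BeadChips (Illumina). The deposited intensity values are background-subtracted GenomeStudio signals of the authors, without scaling between arrays, and each stands beside its detection p-value, also deposited. For the deposited log2 values the authors applied quantile normalization, a floor of 10 and a log2 transform, and kept probes detected (p under 0.01) on at least 1 array. Repeating these steps gave the deposited values with a largest difference of 5.0e-08. In the rest-inserted 1 h array the p-value column repeats the signal for 25281 probes, Tnfrsf11b and Tnfsf11 among them, and detection there was taken from the signal (boundary between 17.8243 and 17.8357). Symbols came from the platform annotation. Probes without a symbol, with several, or with a RIKEN name were left out, which left 13183 probes of 8566 genes. All 6 arrays were used.

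All probes were fitted in limma 3.58.1 (R 4.3.3) on flow and time, with 2 residual degrees of freedom, a constant variance prior and Benjamini-Hochberg adjustment over the 13183 probes at 0.05. The residual holds array noise and any change of the flow effect between the times, and with 1 pooled array per condition it measures no spread between experiments. Differences at 1 time point had no test. The fit was tested on simulated data, in which the noise of a probe depended on its mean intensity alone. That is what the intensity-trend prior assumes, so the simulation cannot decide between the priors on the real arrays. The number of arrays limits the precision. Genes named besides the 3 members are the 5 with the highest correlation for each of Tnfrsf11b and Ctsk, up to 4 genes per list with the highest signal and up to 4 with the largest flow difference among those detected on all arrays, called genes and the RT-PCR reference genes. The members and lists were chosen with earlier results of these data known. Alternatives covered the normalization, floor, offset, filter, prior, model, the deposited values and each array left out. Each member had 1 probe, so the mean over probes changes nothing. Sequences of primers came from the supplementary primer table, and chromosomes from the RefSeq gene table (GRCm38.p6). Figures were drawn with matplotlib in Python.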

Additional observations from a re-analysis of the deposited data

Results flagged for a closer look

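The time difference of Ctsk had opposite signs between flow conditions. From 0 h to 1 h its log2 signal changed by -0.043 without flow, by -0.023 with continuous flow and by 0.13 with rest-inserted flow. Each value is a difference between 2 single arrays, and whether the conditions differ was not tested.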

How the results depend on the processing

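The time difference of Tnfrsf11b kept its sign under every alternative run, and without single arrays it was 0.45 to 0.56. It was called with the intensity-trend prior (0.51), where 322 probes were called between the times and 6 for continuous flow against no flow, and not with the constant prior. With the trend, settings added after seeing the data gave 13 to 113 called probes without single arrays and 490 without normalization. Those called as higher were 29.2% of the calls in the main values, 43.9% after median scaling and 13.7% without normalization. With time alone in the model 1 probe was called between the times under the constant prior.

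The small differences of Ctsk changed sign in places. Without normalization, continuous flow against no flow was 0.029, 1 h against 0 h was -0.024, and RF0 over NF0 was 0.088. Without single arrays the first lay between -0.060 and 0.035 and the second between -0.033 and 0.052. For Tnfsf11 the ranges without single arrays were -0.69 to 0.14 for continuous flow against no flow, -0.34 to 0.94 for rest-inserted flow against no flow, -0.065 to 1.21 between the flows and -0.57 to 0.13 between the times. At a floor of 20, continuous flow against no flow was 0 for Tnfsf11, and RF0 over NF0 and over CF0 was 0.15. The causes were not tested. Tnfsf11 has no value under the filter for detection on all 6 arrays. No paired analysis was possible because each condition had 1 array, so replicate numbers could pair nothing. The time points were compared within flow conditions in the main model, with an SE of 0.079 for Tnfrsf11b, and without flow in the model the SE was 0.10 (limma adjusted p = 0.213).

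With 1 pooled array per condition, differences between flow conditions at 1 time point have no error, and Tnfsf11 lies too near background for an order of levels.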
